A study of Homo sapiens with 9 samples.

Results

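The data compare SKMEL28 cells that carried hairpins against p16 and ATR (shp16/shATR) with SKMEL28 cells that carried the hairpin against p16 (shp16), over every gene with enough reads. SKMEL28 is an established human melanoma line with mutant BRAF, and RNA from cultured cells was sequenced in bulk. The comparison holds 6 of the 9 libraries of the series, 3 in each group, and was taken by the library labels. The other 3 libraries come from cells with a hairpin against GFP (shCont), and their levels are given for reference. All cells, controls included, had been infected with pLKO.1 lentivirus and selected with puromycin. The sources used here do not give which of the study's ATR hairpins was sequenced, or whether shp16 cells had also been given an additional virus without an ATR hairpin. By the study's account each group is 1 experiment with 3 technical replicates. The p-values below are therefore taken to measure technical spread and not the spread between separate infections.

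ATR is a large kinase of the PI3K-like family that is recruited to single-stranded DNA at stalled replication forks and at resected breaks. Through CHK1 it slows the firing of new origins and holds back the cyclin-dependent kinases that drive entry into mitosis. p16, a product of CDKN2A, inhibits CDK4 and CDK6, the kinases that inactivate RB and so free the E2F factors to transcribe replication genes. The study asked what ATR does in melanoma cells with low p16.

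Total counts were between 20000686 and 20555368 in shp16 and between 17314662 and 22771599 in shp16/shATR. A library of shp16 stood apart from the other two: replicate 1 had 7.24% of its counts on the mitochondrial genome, against 4.25% in each of the others and 4.45% to 5.47% in shp16/shATR. The biological coefficient of variation over the 6 libraries was 0.0964, and it was 0.0541 without shp16 replicate 1. List counts that moved with that library are therefore also given without it, and so are some calls of single genes. A library of shCont stood apart as well (replicate 1), and with all 9 libraries in the fit the coefficient was 0.149. Melanocyte lineage markers were present in every library, with a summed level of 7950 to 13200 CPM (TMM-normalized reads of a gene relative to library size) in shp16 and 11100 to 13200 CPM in shp16/shATR. Markers of keratinocytes, fibroblasts, endothelium and immune cells summed to at most 53.8, 47.6, 8.35 and 1.87 CPM in the 6 libraries, and the edgeR test called none of the 18 markers of these types that could be tested. At an unadjusted p under 0.05 there was 1 such marker, and DESeq2 called 0. Without shp16 replicate 1, edgeR called the fibroblast marker LUM (log2 fold change −0.534, adjusted p = 4.64e-05) and the keratinocyte marker SFN (−2.11, adjusted p = 0.0381) lower.

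ATR itself was examined first. The gene (ENSG00000175054, chromosome 3 from 142168077 to 142297668 in the GRCh37 coordinates of the deposited table) had 93.5, 83.4 and 85.6 CPM in the shp16 libraries and 39.9, 39.98 and 41.0 CPM in the shp16/shATR libraries. The groups did not overlap, and the level was lowered 2.17-fold. The log2 fold change was −1.12 (standard error 0.065, edgeR adjusted p = 2.96e-05, lower in 3 of 3 libraries), and p was 0.1 in a two-sided exact permutation test, where 3 libraries against 3 cannot give less. In shCont, ATR stood at 93.5 and 96.4 CPM in replicates 2 and 3 and at 46.0 CPM in replicate 1. CDKN2A, the gene of p16, had 78.1, 93.5 and 99.9 CPM in shp16 and 82.6, 90.0 and 82.4 CPM in shp16/shATR. These values overlapped, and the log2 fold change of −0.09 (standard error 0.092) did not pass the test, but edgeR called CDKN2A lower when shp16 replicate 1 was left out (log2 fold change −0.19, adjusted p = 0.0229). The counts sum over all transcripts of CDKN2A, of which p16 has only a share.

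Many genes differed by modest amounts between shp16/shATR and shp16. Of 15209 genes tested, 2878 (18.9%) were called at a Benjamini-Hochberg adjusted p of 0.05 in edgeR's quasi-likelihood test, 1247 (8.20%) higher and 1631 (10.7%) lower. The median absolute log2 fold change of the called genes was 0.444. The groups did not overlap for 38.6% of all tested genes, and separations of single genes are to be read against that share. Most genes below were named because they were called, which itself favours separated groups. For those genes a separation adds no support to the call. A change of at least 1 on the log2 scale was seen for 161 genes called higher and 64 called lower. Without shp16 replicate 1, 4371 of 15680 genes were called (27.9%), 2059 higher (13.1%) and 2312 lower (14.7%). When all 9 libraries shared the estimate of spread (the 9-library fit), 981 of 15776 genes were called (6.22%), 430 higher (2.73%) and 551 lower (3.49%), and 976 of these 981 were also called with 6 libraries. That count rests on shCont replicate 1: with every library but that one fitted, 3223 genes were called, and the coefficient of variation was 0.0903. The excess of falls over rises turned under upper-quartile normalization, which gave 1575 calls higher and 1405 lower. Counts of the gene lists below are to be read against the shares over all genes in the same fit.

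**Figure D1:**
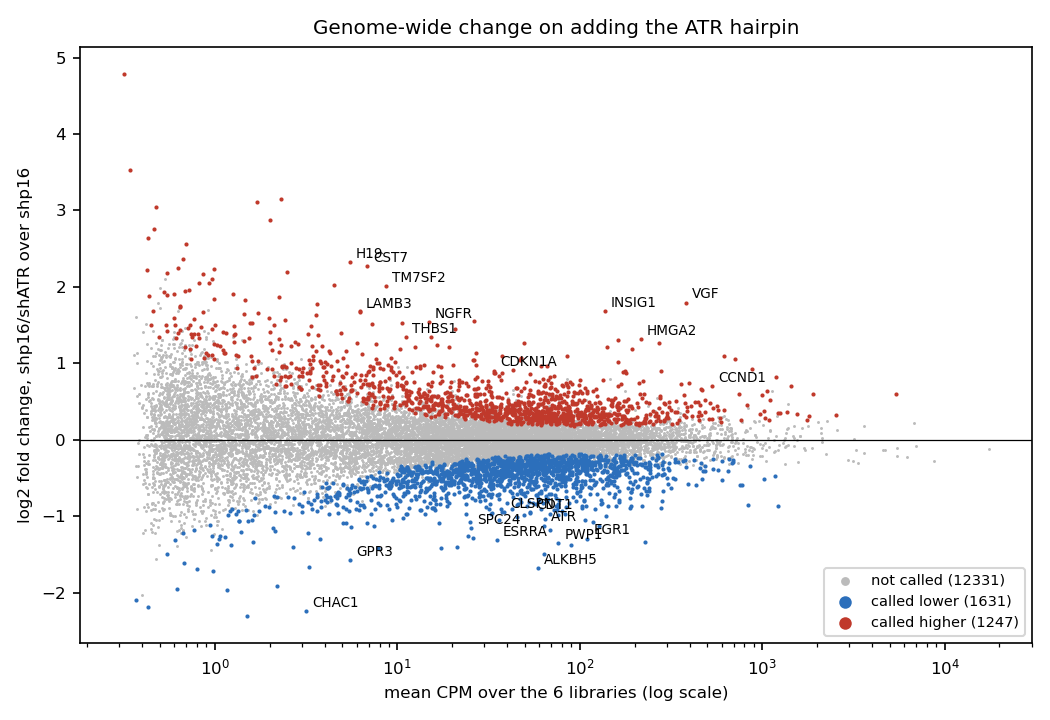
Each point is a tested gene, placed by its mean CPM over the 6 libraries (log axis) and its log2 fold change of shp16/shATR over shp16, in red where called higher, blue where called lower and grey otherwise. The 1247 rises reach further from 0 than the 1631 falls, and ALKBH5 lies below ATR.

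The strongest rises among genes with a mean of at least 5 CPM included secreted, adhesion and sterol genes. H19, an imprinted long noncoding RNA, had 1.92, 1.90 and 1.66 CPM in shp16 and 8.59, 8.70 and 10.2 CPM in shp16/shATR (log2 fold change 2.32). CST7, which encodes the cysteine protease inhibitor cystatin F, went from 1.56, 2.51 and 2.92 CPM to 11.9, 12.7 and 9.48 CPM (log2 fold change 2.27). VGF, a neuropeptide precursor, was abundant before and after, with 163, 175 and 173 CPM in shp16 and 605, 596 and 574 CPM in shp16/shATR. Genes were ranked for the largest rises and falls only if the groups did not overlap. H19 and CST7 differed in their control levels: H19 lay between 0.899 and 1.5 CPM in shCont, CST7 between 6.74 and 11.0 CPM. The other 12 of the 15 largest rises were TM7SF2 and INSIG1 (sterol metabolism), the adhesion genes PCDH1, LAMB3 and ITGAX, the neurotrophin receptor NGFR, IFITM10, LGI3, the potassium channel KCNN4, the RNA-binding protein LIN28B, the matrix protein THBS1 and the chromatin protein HMGA2, with log2 fold changes from 2.01 (TM7SF2) to 1.32 (HMGA2). HMGA2 had the most even values, at 124, 122 and 124 CPM against 309, 300 and 314 CPM. All 15 were called under each of the 17 alternative fits.

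The falls included genes that fell further than ATR. ALKBH5, a demethylase that removes N6-methyladenosine from RNA (chromosome 17 from 18086392 to 18113268), had 89.7, 89.2 and 89.8 CPM in shp16 and 28.8, 26.7 and 28.9 CPM in shp16/shATR. This is a 3.19-fold lower level (log2 fold change −1.67, standard error 0.062, edgeR adjusted p = 2.26e-06, lower in 3 of 3 libraries), and shCont stood at 98.8 to 108 CPM. EI24, an endoplasmic reticulum protein that was found as a p53 target, had 111, 84.8 and 84.8 CPM and then 32.1, 31.9 and 35.6 CPM (log2 fold change −1.5). The other large falls were GPR3 (−1.57), the uncharacterised transcript CTD-2196E14.9 (−1.42), DEPDC1B (−1.41), the ubiquitin ligase RNF41 (−1.40), UNC13B (−1.38), PWP1 (−1.35), LZTS1 (−1.33), the nuclear receptor ESRRA (−1.31), the transcription factor EGR1 (−1.29), the dNTP pyrophosphatase DCTPP1 (−1.29), UBR7 (−1.26), the junction protein JAM3 (−1.17) and the kinetochore subunit SPC24 (−1.16) on the log2 scale. PWP1 had 118, 108 and 103 CPM against 46.1, 43.8 and 39.0 CPM, and RNF41 had 32.0, 29.3 and 30.7 CPM against 11.2, 10.9 and 12.9 CPM. The 15 falls were called under all 17 alternative fits.

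**Figure D2:**
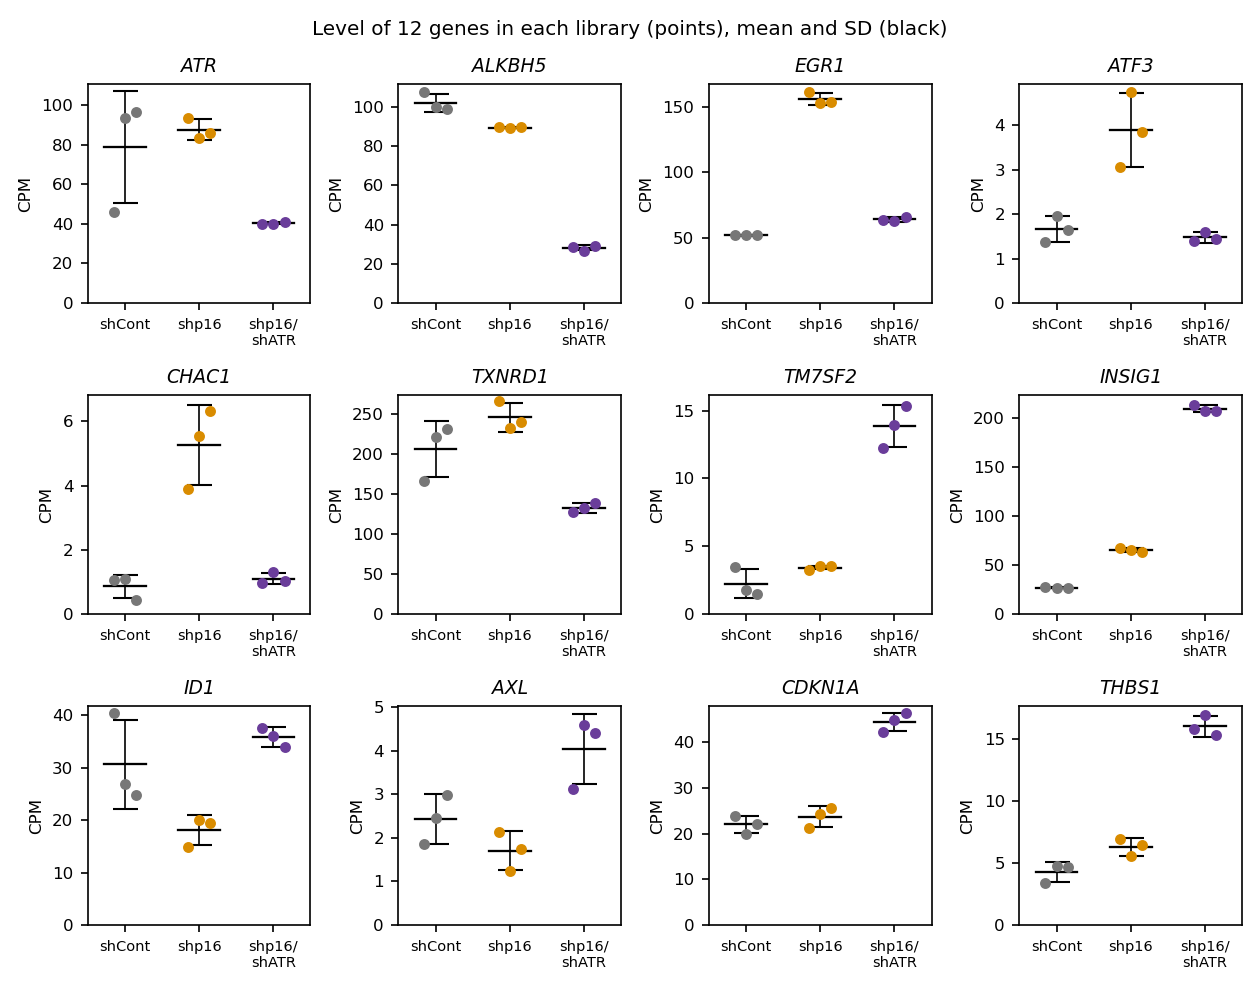
Points are the CPM (axes from 0) of 12 genes in each of the 9 libraries by group, with the mean and SD of the 3 libraries in black. The shp16/shATR libraries lie below all shp16 libraries for ATR, ALKBH5, EGR1, ATF3, CHAC1 and TXNRD1 and above them for TM7SF2, INSIG1, ID1, AXL, CDKN1A and THBS1.

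Many genes of DNA replication fell. In bulk RNA, fewer cells in S phase and less of these transcripts per cell cannot be told apart. Of 44 tested members, which cover origin licensing, the replicative helicase, the polymerases, the clamp loader and histone chaperones, 28 were called lower and 0 higher by edgeR, with a median log2 fold change of −0.40 against −0.00139 over all genes. None was higher at an unadjusted p under 0.05 or by DESeq2. The licensing factor CDT1 had 90.7, 61.8 and 58.6 CPM in shp16 and 36.0, 34.4 and 38.5 CPM in shp16/shATR (log2 fold change −0.96). Its highest level was in shp16 replicate 1, and the log2 fold change was −0.74 when that library was left out. MCM10, which helps to activate the helicase, had 21.7, 19.1 and 19.7 CPM and then 9.98, 13.1 and 9.33 CPM (log2 fold change −0.89). PRIM1, the catalytic subunit of primase, had 24.8, 21.1 and 19.9 CPM and then 14.5, 10.4 and 12.2 CPM (log2 fold change −0.84). In all of these the groups stood apart.

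Falls within the replication machinery were uneven. All 6 subunits of the MCM2 to MCM7 helicase were called lower, from −0.71 on the log2 scale for MCM2 to −0.32 for MCM6. MCM2 itself had 224, 179 and 181 CPM in shp16 and 118, 115 and 126 CPM in shp16/shATR. The chromatin assembly genes CHAF1A (−0.73), CHAF1B (−0.72) and ASF1B (−0.61) and the maintenance methylation factor UHRF1 (−0.71) were lower as well. The sliding clamp PCNA had a log2 fold change of −0.01 and the origin subunits ORC2 to ORC5 had values between −0.05 and 0.12, none past the test. With 35 members called lower without shp16 replicate 1 and 17 in the 9-library fit, the direction of the calls did not vary, and the median stayed at −0.37 and −0.40 on the log2 scale.

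Sequence upstream of these genes is shown because the replication and mitotic genes are known for different promoter motifs. Promoters (300 bases, from 250 before to 50 after each annotated start) came from RefSeq on GRCh38.p14 and were matched by symbol. Both strands were searched for the E2F motif (TTTGGCGC, TTTCGCGC, TTTCCCGC, TTTGCCGC or TTCCCGCC), for the cell cycle homology region (CHR, TTTGAA or TTCGAA) and for the CCAAT box (CCAAT). A promoter was found for 39 of the 44 replication genes, and 23 of them (59.0%) held an E2F motif, against 6.67% of all 27305 genes with a promoter and 15.1% of the genes called lower that had one. The share was 41.9% for recombination and Fanconi genes and 23.8% for nucleotide synthesis genes. The CHR was found for 5.13% of the replication genes and 19.5% of all genes. All genes here are all those with a promoter, many of them not tested in these cells. Of the tested genes 71.9% had a promoter, too few for a share to be given. The 4 replication genes with the largest called falls among those with an E2F motif are shown 5′ to 3′ on the strand of the gene, with the motif in capitals as it reads on that strand:
CDT1 (chr16:88803744-88803771, plus strand): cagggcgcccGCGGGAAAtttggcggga
PRIM1 (chr12:56752330-56752357, minus strand): ggccgtgctgTTCCCGCCaattcctgtg
GINS3 (chr16:58392456-58392483, plus strand): gtccccgggcGCGGGAAAcgagtttcaa
CHAF1A (chr19:4402623-4402650, plus strand): gtcgccgcggTTCCCGCCaaatacgagc
These 4 genes had log2 fold changes of −0.96, −0.84, −0.73 and −0.73. A match gives the letters in the window and does not show that a factor binds there.

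Nucleotide synthesis genes were lower as well. Of 26 tested, 13 were called lower and 1 higher, with a median log2 fold change of −0.25. DCTPP1, which clears unusual deoxynucleotides, had 40.1, 35.2 and 35.4 CPM in shp16 and 14.1, 13.7 and 17.7 CPM in shp16/shATR. RRM2, the S-phase subunit of ribonucleotide reductase, had 320, 285 and 276 CPM and then 183, 179 and 190 CPM (log2 fold change −0.67). TK1, the S-phase thymidine kinase, had 99.6, 87.3 and 81.4 CPM and then 55.4, 61.2 and 61.9 CPM (log2 fold change −0.59), and the mitochondrial folate enzyme MTHFD2 changed by −0.67. The groups did not overlap for these 4 genes. ATIC, which closes the purine ring, was the member called higher (log2 fold change 0.25). In the 9-library fit 5 members were called lower and 0 higher, and without shp16 replicate 1 there were 14 lower and 1 higher.

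The regulators of the G1 to S transition were called in both directions. Of 27 tested cyclins, cyclin-dependent kinases, inhibitors, E2F and RB genes, 12 were called lower and 5 higher. TFDP1, the dimer partner of E2F factors, had 87.1, 86.5 and 86.2 CPM in shp16 and 46.0, 43.1 and 37.7 CPM in shp16/shATR, the largest fall of the list (log2 fold change −1.04). E2F1 (−0.62), E2F2 (−0.67), E2F8 (−0.69), CCNA2 (−0.53) and CCNE2 (−0.63) were also lower. The rises were those of the inhibitors CDKN1A (0.90), CDKN1B (0.45) and CDKN2B (0.43), of the repressor E2F6 (0.36) and of CCND1 (0.70). CDKN1A, which encodes p21, had 21.2, 24.4 and 25.5 CPM in shp16 and 42.3, 44.8 and 46.3 CPM in shp16/shATR, with 19.98 to 23.9 CPM in shCont. CCND1, the cyclin partner of CDK4 and CDK6, had 498, 353 and 367 CPM and then 648, 616 and 722 CPM. No overlap was seen for either gene. The 9-library fit called 6 lower and 2 higher, and leaving out shp16 replicate 1 gave 15 lower and 5 higher.

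Mitotic genes were called lower with smaller changes than replication genes. Of 42 tested, 23 were called lower and 0 higher by edgeR, with a median log2 fold change of −0.27 and a range from −0.54 to 0.12. At an unadjusted p under 0.05, 35 were lower and 0 higher, and DESeq2 called 21 lower and 0 higher. MYBL2, a transcription factor that activates mitotic genes, had the largest fall (log2 fold change −0.54) but had 146 CPM in shp16 replicate 1 against 112 and 109 CPM in the other two. The kinesin KIF14 had 36.6, 37.3 and 38.4 CPM in shp16 and 25.7, 26.1 and 26.8 CPM in shp16/shATR (log2 fold change −0.52). BUB1B, a spindle checkpoint kinase, had 52.4, 58.0 and 54.7 CPM and then 42.3, 38.8 and 40.02 CPM (log2 fold change −0.45). For both genes the groups stood apart. MKI67 (−0.32), TOP2A (−0.19) and CDK1 (−0.33), common markers of cycling cells, did not pass the test with 6 libraries. Leaving out shp16 replicate 1, edgeR called CDK1 (log2 fold change −0.454, adjusted p = 0.000103) and TOP2A (−0.151, adjusted p = 0.0212) lower. When shp16 replicate 1 was left out, 33 members were called lower, whereas the 9-library fit called 1, KIF15.

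Most promoters of mitotic genes held the other motif, the CHR. Of 42 genes 36 had a promoter, and 29 of these (80.6%) held a CHR, against 19.5% of all genes, while 11.1% held an E2F motif. The CCAAT box was in 77.8% of the mitotic and 59.0% of the replication genes, against 39.7% of all. The windows of the 4 largest called falls with a CHR (in capitals, with 2 adjoining matches in HMMR) are:
KIF14 (chr1:200620734-200620761, minus strand): cggggcgcccaTTCAAAttgcggccttc
KIF15 (chr3:44761748-44761775, plus strand): caagcgccaaaTTCAAAtttgcggccat
BUB1B (chr15:40161035-40161062, plus strand): ggaccgttaaaTTTGAAacttggcggct
HMMR (chr5:163460593-163460620, plus strand): atgtggggagaTTTGAATTTGAAaccgg
Their log2 fold changes were −0.52, −0.48, −0.45 and −0.38. The KIF15 window also holds an E2F motif, TTTGGCGC read on the opposite strand, which is left in small letters.

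**Figure D3:**
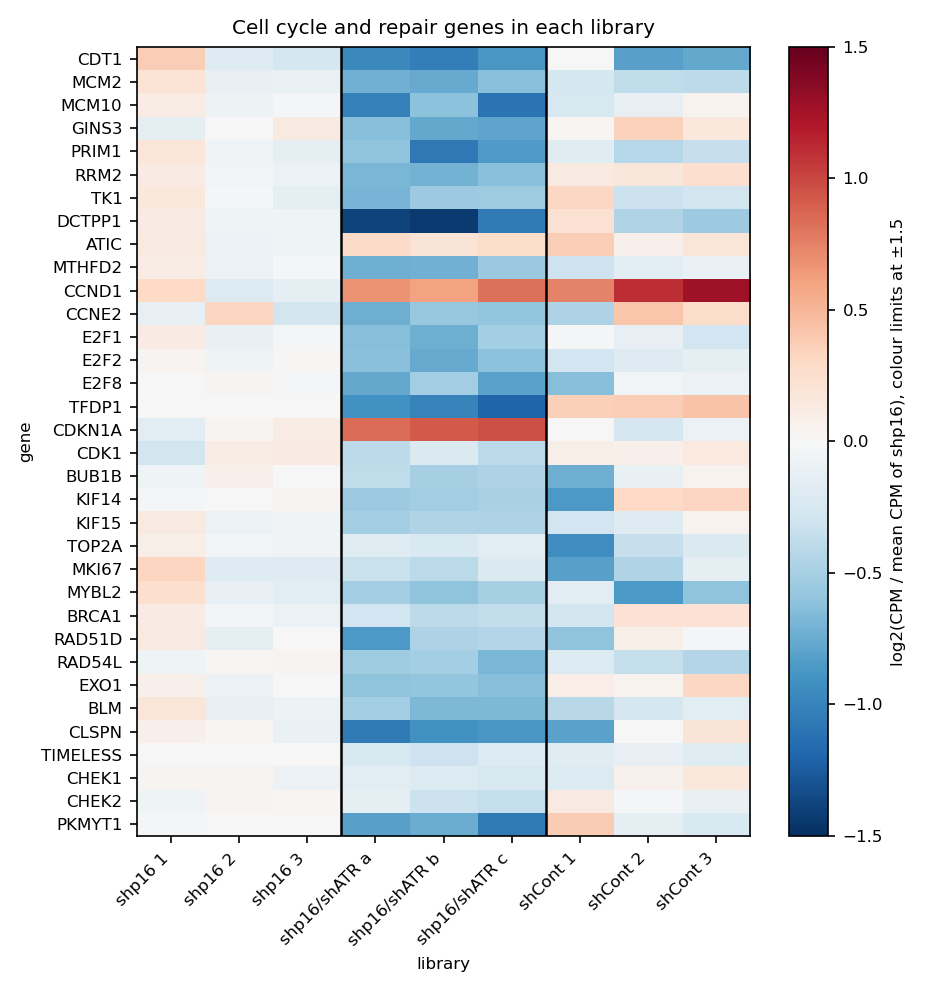
Colour gives log2(CPM / mean CPM of shp16) for the named replication, nucleotide, cyclin, mitosis, recombination and checkpoint genes (rows) in each of the 9 libraries (columns, groups divided by lines). Most rows are blue in the 3 shp16/shATR columns, and CDKN1A and CCND1 are red there.

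Genes of homologous recombination and of the Fanconi anaemia pathway, which repair breaks and crosslinks at forks, were lower too. Of 36 tested, 17 were called lower and 0 higher by edgeR (22 and 0 at an unadjusted p under 0.05, 16 and 0 by DESeq2), with a median log2 fold change of −0.32. The helicase BLM had 59.4, 48.4 and 49.96 CPM in shp16 and 37.1, 32.8 and 33.0 CPM in shp16/shATR (log2 fold change −0.62). EXO1, the nuclease that resects DNA ends, had 35.6, 31.8 and 34.0 CPM and then 22.3, 22.5 and 21.6 CPM (log2 fold change −0.61). RAD54L (−0.58), RAD51D (−0.57) and BRCA1 (−0.35) were called, and BRCA2 (−0.26) did not pass the test. In the 9-library fit 6 were called lower, and without shp16 replicate 1 there were 20.

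Genes of the ATR checkpoint were called lower only, with 6 libraries. Of 20 tested genes that load, activate or act below ATR, 4 were called lower and 0 higher by edgeR (10 and 1 at an unadjusted p under 0.05, 3 and 0 by DESeq2), against 10.7% of all genes lower. CLSPN, the adaptor that brings CHK1 to ATR, had 53.5, 51.3 and 47.5 CPM in shp16 and 24.4, 27.0 and 27.6 CPM in shp16/shATR (log2 fold change −0.95, 1.93-fold lower). PKMYT1, a kinase that restrains CDK1, had 66.2, 67.3 and 66.8 CPM and then 38.1, 39.9 and 32.0 CPM (log2 fold change −0.87). No overlap was seen for either gene, but CLSPN stood at 29.2 CPM in shCont replicate 1 and at 50.6 and 58.0 CPM in the other shCont libraries. TIMELESS (−0.25) and CHEK2 (−0.28) were the other calls. CHEK1, the main substrate kinase, had 28.6, 28.4 and 26 CPM in shp16 and 24.7, 23.9 and 23.4 CPM in shp16/shATR, which did not pass the test (edgeR adjusted p = 0.0888) although the groups stood apart. The obligate partner ATRIP (−0.24) and the activators TOPBP1 (−0.16) and ETAA1 (0.18) did not pass either. Of the related kinases and their cochaperones, TTI1 (−0.36) was called among 8, with ATM at 0.18, PRKDC at −0.30 and MTOR at −0.26 on the log2 scale, none past the test. The 20 checkpoint genes gave 7 lower and 2 higher calls when shp16 replicate 1 was left out, with TOPBP1 (−0.16) among the falls, and ATM (0.157) was then called higher.

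Targets of p53 were called in both directions. Of 29 tested, 12 were called lower and 4 higher, with a median log2 fold change of −0.16. CDKN1A rose, as did TP53INP1 (0.60), PLK3 (0.43) and TRIAP1 (0.58). PHLDA3, an inhibitor of AKT, had 180, 191 and 189 CPM in shp16 and 91.2, 93.5 and 96.1 CPM in shp16/shATR (log2 fold change −1.0). EI24 (−1.5), BTG2 (−0.86), PLK2 (−0.79) and MDM2 (−0.42), the ubiquitin ligase that limits p53, were also lower. Among the death genes of the list, BAX (−0.13), BBC3 (−0.01), PMAIP1 (0.06) and FAS (0.14) did not pass the test. The death receptor gene TNFRSF10B (−0.33) was called lower. The 9-library fit called 5 lower and 2 higher. Leaving out shp16 replicate 1 gave 14 lower and 5 higher, and BAX was then called lower (log2 fold change −0.246, edgeR adjusted p = 0.0083).

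In the BCL2 family some activators and some inhibitors of apoptosis rose. Of 16 tested, 5 were called higher and 1 lower. HRK, a BH3-only activator, had 1.97, 2.70 and 3.17 CPM in shp16 and 5.94, 5.67 and 6.00 CPM in shp16/shATR (log2 fold change 1.16). BCL2L11, which encodes BIM, had 39.9, 38.9 and 37.2 CPM and then 56.0, 53.9 and 53.4 CPM (log2 fold change 0.49). BMF (0.61), another BH3-only gene, and the prosurvival genes MCL1 (0.48) and BCL2A1 (0.20) were higher, and BID (−0.58) was lower. Leaving out shp16 replicate 1 gave 6 higher and 2 lower, and the 9-library fit 3 higher and 0 lower, without MCL1 (edgeR adjusted p = 0.0568) and BCL2A1 (0.383).

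Immediate early genes, which are transcribed within minutes of growth factor or stress signals, had the lowest median of all lists but the keratinocyte markers, of which 6 were tested and 0 called. Of 24 tested, 14 were called lower and 2 higher, with a median log2 fold change of −0.42. EGR1 had 162, 153 and 154 CPM in shp16 and 63.1, 62.7 and 65.8 CPM in shp16/shATR (log2 fold change −1.29), and 51.6 to 52.0 CPM in shCont. EGR2 had 3.84, 3.42 and 3.17 CPM and then 0.865, 0.822 and 1.08 CPM (log2 fold change −1.91). FOSB had 4.05, 4.84 and 6.04 CPM and then 1.90, 1.73 and 1.08 CPM (log2 fold change −1.67). The stress-induced factor ATF3 had 3.06, 4.74 and 3.85 CPM and then 1.38, 1.6 and 1.44 CPM (log2 fold change −1.40). For each of these 4 genes the 3 shp16/shATR libraries lay below all shp16 libraries. FOS (−0.73), JUN (−0.65), SRF (−0.54) and MYC (−0.45) were called lower as well. FOSL1 (0.70), a slower member of the FOS family, and JUND (0.35) were the 2 rises. The 9-library fit called 11 lower and 1 higher, and leaving out shp16 replicate 1 gave 18 lower and 2 higher.

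The outputs of the ERK pathway were called in both directions. Of 22 tested, 5 were called higher and 3 lower, with a median log2 fold change of 0.0018. DUSP6, a phosphatase of ERK that is induced by ERK, had 61.7, 68.8 and 71.8 CPM in shp16 and 104, 105 and 105 CPM in shp16/shATR (log2 fold change 0.63). FOSL1, CCND1, LIF (0.76) and SPRED1 (0.32) were higher, and EGR1, MYC and MAFF (−0.46) were lower. For DUSP6 the shCont libraries lay at 84.8, 106 and 104 CPM. The list gave 9 higher and 5 lower when shp16 replicate 1 was left out.

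Targets of ATF4, the factor of the integrated stress response, were mostly lower among those called. Of 33 tested, 12 were called lower and 3 higher, with a median log2 fold change of −0.21. CHAC1, an enzyme that degrades glutathione, had 3.9, 5.55 and 6.34 CPM in shp16 and 0.981, 1.30 and 1.02 CPM in shp16/shATR (log2 fold change −2.24), with 0.450 to 1.08 CPM in shCont. ATF3, MTHFD2, SESN2 (−0.57), the cystine transporter SLC7A11 (−0.47) and the leucine transporter SLC7A5 (−0.41) followed. DDIT4 (0.46), CBS (0.41) and XPOT (0.27) were higher, and DDIT3 (0.06), TRIB3 (0.09) and GDF15 (0.04) did not pass the test. In the 9-library fit 4 were lower and 1 higher, and without shp16 replicate 1 there were 18 lower and 4 higher. The aminoacyl-tRNA synthetases, which are often counted with this response, gave 2 calls higher among 20, WARS (0.49) and NARS (0.21), and 0 lower (4 at an unadjusted p under 0.05, 0 by DESeq2), with 5 higher when shp16 replicate 1 was left out. Of 27 genes of the unfolded protein response, 3 were higher and 1 was lower, the sensor ERN1 (−0.90), against 8.20% higher and 10.7% lower over all genes. That list gave 6 higher and 6 lower without shp16 replicate 1 and 0 in either direction in the 9-library fit. Cytosolic heat shock genes gave 2 lower among 18, FKBP4 (−0.38) and HSF1 (−0.28), and 0 higher, yet 6 higher and 3 lower without shp16 replicate 1.

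Sterol synthesis was the list with the largest share of rises. Without LSS, which is left aside here, 15 of 20 tested enzymes were called higher and 0 lower by edgeR (17 and 1 at an unadjusted p under 0.05, 15 and 0 by DESeq2), with a median log2 fold change of 0.52. TM7SF2, a sterol reductase (chromosome 11 from 64879317 to 64883856), had 3.27, 3.51 and 3.51 CPM in shp16 and 12.3, 13.9 and 15.4 CPM in shp16/shATR (log2 fold change 2.01, 4.03-fold higher). SQLE, the first oxygen-dependent step, had 134, 122 and 116 CPM in shp16 and then 228, 228 and 240 CPM (log2 fold change 0.90). DHCR7 (0.90), which makes cholesterol from its last precursor, and FDPS (0.97) rose as well. For TM7SF2 and SQLE the shp16/shATR libraries lay above all shp16 libraries. CYP51A1 (0.24), HSD17B7 (0.28), EBP (0.24) and PMVK (−0.27) did not pass, though EBP was called higher (0.361) without shp16 replicate 1. The summed level of the 20 genes was 1960 to 2190 CPM in shp16, 2920 to 3050 CPM in shp16/shATR and 1240 to 1360 CPM in shCont. The test called 17 higher without shp16 replicate 1 and 10 in the 9-library fit.

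Regulators of sterol balance did not all follow. INSIG1, which holds the SREBP precursors in the endoplasmic reticulum and is itself an SREBP target, had 67.0, 65.2 and 63.0 CPM in shp16 and 213, 206 and 207 CPM in shp16/shATR (log2 fold change 1.68), with 26.6 to 27.1 CPM in shCont. SOAT1 (0.73), which esterifies cholesterol, STARD4 (0.59), which carries it, and the lysosomal lipase LIPA (0.43) were higher. SREBF2 (0.04), SREBF1 (0.12) and SCAP (0.00) did not pass. In all, 6 of 17 were higher and 1 lower, and 6 and 4 when shp16 replicate 1 was left out.

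Fatty acid genes gave 8 calls higher and 2 lower among 17, with a median log2 fold change of 0.21. SCD, the stearoyl-CoA desaturase, had 1250, 1020 and 1020 CPM in shp16 and 1760, 1700 and 1900 CPM in shp16/shATR (log2 fold change 0.70). ACSS2, which makes acetyl-CoA from acetate, had 72.8, 75.1 and 75.9 CPM and then 119, 124 and 125 CPM (log2 fold change 0.71). These 2 did not overlap between groups, and ACSL4 (0.48), ELOVL6 (0.46) and FASN (0.34) were called higher too. ACLY (−0.30), which makes acetyl-CoA from citrate, and the desaturase FADS1 (−0.35) were lower. Leaving out shp16 replicate 1, the counts were 12 higher and 2 lower, and in the 9-library fit 3 higher and 0 lower.

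The number of lysosomal calls varied with the libraries fitted, while the median fold change varied little. Of 47 tested, 11 were called higher and 3 lower. Without shp16 replicate 1 there were 22 higher and 5 lower, and in the 9-library fit 1 higher and 2 lower. Over all genes 8.20% were higher and 10.7% lower with 6 libraries, and 13.1% and 14.7% without shp16 replicate 1. The median log2 fold change of the list was 0.15 with 6 libraries, 0.12 without shp16 replicate 1 and 0.15 in the 9-library fit. The summed level of the list was 11300 CPM in shp16 replicate 1, 14200 and 14100 CPM in the other shp16 libraries and 15200 to 15700 CPM in shp16/shATR. TFEB, the factor that activates these genes, was itself low, at 1.40, 1.56 and 1.27 CPM in shp16 and 2.54, 2.38 and 3.18 CPM in shp16/shATR (log2 fold change 0.93). The cathepsin CTSL1 (now CTSL) changed by 0.71 on the log2 scale. The proton pump subunit ATP6V0E1 had 132, 135 and 133 CPM and then 77.2, 79.1 and 76.0 CPM (log2 fold change −0.79), and CTSS (−0.61) and ATP6V0D1 (−0.54) were also lower. The part of the library in the lysosomal counts was not tested further.

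mTORC1 and the proteins that control it at the lysosome gave 4 calls higher and 4 lower among 40, a share close to the background in each direction. EIF4EBP2, a repressor of cap-dependent translation that mTORC1 inactivates, had 119, 103 and 108 CPM in shp16 and 56.4, 54.6 and 58.5 CPM in shp16/shATR (log2 fold change −0.96). TBC1D7, a subunit of the TSC complex, had 136, 160 and 155 CPM and then 226, 220 and 211 CPM (log2 fold change 0.54). The groups stood apart for both. RHEB (0.34), LAMTOR1 (0.21) and SESN3 (0.31) were higher and SESN2 (−0.57) was lower. With shp16 replicate 1 left out this list gave 7 higher and 6 lower. Autophagy genes gave 4 higher and 3 lower among 35, also close to the background, among them the receptor SQSTM1 at 406, 343 and 341 CPM against 558, 550 and 606 CPM (log2 fold change 0.65) and ATG16L1 (−0.70). Without shp16 replicate 1 the autophagy list gave 7 higher and 3 lower, against 13.1% and 14.7% of all genes.

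Hypoxia-induced genes gave 9 calls higher and 2 lower among 23. SLC2A3, a glucose transporter, had 119, 118 and 120 CPM in shp16 and 272, 266 and 274 CPM in shp16/shATR (log2 fold change 1.18). PFKFB4, which sets the level of a glycolytic activator, had 113, 173 and 189 CPM and then 401, 415 and 334 CPM (log2 fold change 1.27). ANGPTL4 was also higher (2.05) but at 0.0975 to 0.468 CPM in shp16 and 0.995 to 1.64 CPM in shp16/shATR. ADM (−0.34) and EGLN1 (−0.24) were lower, and VEGFA (0.38), HK2 (−0.04) and PDK1 (0.03) did not pass. The 9-library fit called 6 higher and 0 lower. Without shp16 replicate 1, 9 were higher and 4 lower, and the median fell from 0.20 to 0.054 on the log2 scale.

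Genes of central metabolism and of the mitochondria were called near or below the share over all genes (18.9%) with 6 libraries, and above it in part without shp16 replicate 1. Glycolysis, the TCA cycle and the pentose phosphate pathway gave 3 higher and 5 lower among 38, with OGDH (−0.57), IDH2 (−0.51), IDH3A (−0.39) and FH (−0.30), all of the TCA cycle, among the falls. The counts were 13 higher and 6 lower when shp16 replicate 1 was left out, against 27.9% of all genes. The nuclear subunits of the respiratory complexes gave 7 lower and 1 higher among 58, with CYC1 (−0.38) lower and SDHC (0.25) higher, and 8 lower and 3 higher without that library. For the 13 genes of the mitochondrial genome edgeR called 0 in either direction, 0 were under an unadjusted p of 0.05 and DESeq2 called 0. Their summed level was 77100 CPM in shp16 replicate 1, 41400 and 41500 CPM in the other two and 43800 to 55700 CPM in shp16/shATR. Without shp16 replicate 1, 9 of the 13 were called higher, with a median log2 fold change of 0.27 in place of −0.12. Targets of NRF2 gave 5 higher and 3 lower among 24: HMOX1, which degrades haem, had 61.6, 57.0 and 62.1 CPM and then 97.3, 96.7 and 103 CPM (log2 fold change 0.71), whereas TXNRD1, a thioredoxin reductase, had 266, 232 and 240 CPM and then 127, 132 and 139 CPM (log2 fold change −0.89). The NRF2 list gave 11 higher and 4 lower without shp16 replicate 1.

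Cytosolic ribosomal proteins gave 2 calls lower among 75, RPS6 (−0.31) and RPLP2 (−0.26), and 0 higher by edgeR (14 lower and 1 higher at an unadjusted p under 0.05, 4 lower and 0 higher by DESeq2). Over all genes 10.7% were lower. When shp16 replicate 1 was left out, 13 ribosomal proteins were called lower, against 14.7% of all genes. Ribosome biogenesis gave 6 lower and 0 higher among 30, led by RRS1, an assembly factor of the large subunit, at 18.9, 19.7 and 22.2 CPM against 11.4, 10.7 and 10.9 CPM (log2 fold change −0.89). POLR1A (−0.42), the large subunit of RNA polymerase I, and its factor RRN3 (−0.50) were also lower. The biogenesis list gave 8 lower and 0 higher without shp16 replicate 1.

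**Figure D4:**
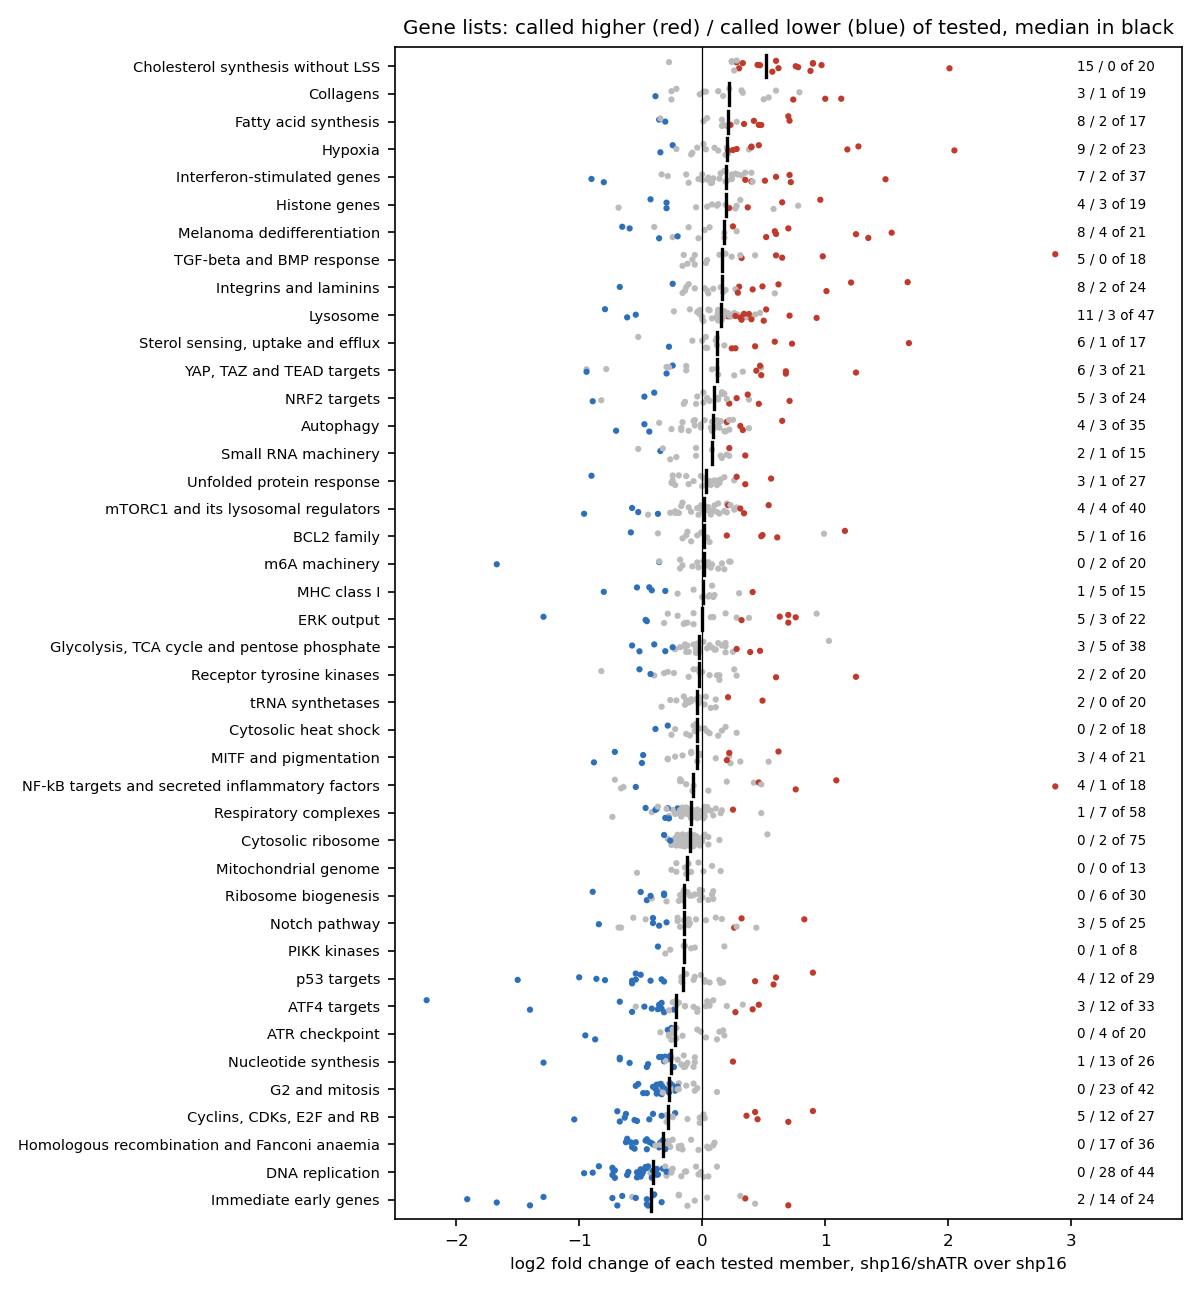
Each row is a gene list (cell type markers left out) and each point the log2 fold change of a tested member, red where called higher, blue where called lower and grey otherwise, with the median as a black bar and the counts at the right. Immediate early genes (median −0.42) and DNA replication (−0.40) stand at the bottom and cholesterol synthesis (0.52) at the top.

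Interferon-stimulated genes gave 7 calls higher and 2 lower among 37, with a median log2 fold change of 0.19. IFIT3 had 21.9, 26.4 and 23.2 CPM in shp16 and 38.4, 38.6 and 40.8 CPM in shp16/shATR (log2 fold change 0.72), and IFIT2 changed by 0.71. The groups did not overlap for IFIT3. OAS3, a sensor of double-stranded RNA, went the other way, from 148, 111 and 104 CPM to 66.3, 69.1 and 74.2 CPM (log2 fold change −0.80). IFIT1 (0.29), ISG15 (0.00) and MX1 (0.00) did not pass the test. There were 11 higher and 1 lower without shp16 replicate 1, and in the 9-library fit 4 and 1.

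Antigen presentation by MHC class I gave 5 calls lower and 1 higher among 15. The activator NLRC5 (−0.80), the peptide transporters TAP2 (−0.53) and TAP1 (−0.43) and the immunoproteasome subunit PSMB9 (−0.41) were lower, and HLA-F (0.41) was higher. The list gave 8 lower and 1 higher without shp16 replicate 1, where its median log2 fold change went from 0.0027 to −0.26, and 3 lower and 0 higher in the 9-library fit. B2M, the shared light chain, had 176 CPM in shp16 replicate 1, 376 and 369 CPM in the other two and 337, 354 and 283 CPM in shp16/shATR, so the groups overlapped. It was not called with 6 libraries (log2 fold change 0.08), and without shp16 replicate 1 edgeR called it lower (log2 fold change −0.205, adjusted p = 0.0446). Inflammatory genes gave 4 higher and 1 lower among 18, with the urokinase receptor PLAUR at 15, 27.5 and 28.9 CPM against 51.9, 52.1 and 48.7 CPM (log2 fold change 1.09), ICAM1 (0.46) higher and the inhibitor TNFAIP3 (−0.54) lower, and 4 higher and 3 lower without shp16 replicate 1.

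The main factors of pigment cell identity did not pass the test. MITF had 824, 688 and 669 CPM in shp16 and 614, 606 and 654 CPM in shp16/shATR, and SOX10 had 856, 917 and 904 CPM and then 842, 858 and 819 CPM. Their log2 fold changes were −0.22 and −0.09. Among 21 tested pigmentation genes 3 were called higher and 4 lower: PAX3 (0.62) was higher, and TYRP1 had 88.6, 107 and 102 CPM and then 55.5, 52.8 and 53.6 CPM (log2 fold change −0.88). The summed level of this list was 9950 CPM in shp16 replicate 1 and 15300 to 15500 CPM in the other shp16 libraries, against 13200 to 15400 CPM in shp16/shATR, and leaving that library out gave 5 higher and 6 lower. A list drawn up around dedifferentiated or drug-tolerant melanoma gave 8 higher and 4 lower among 21. It is mixed and includes TFAP2A, which is also on the melanocyte lineage list, so its counts give no direction of cell state. SOX9, SOX2, WNT5A, ZEB1, TWIST2 and PDGFRB had too few reads to be tested. NGFR, a neural crest receptor, had 7.38, 7.21 and 8.14 CPM and then 21.4, 22.5 and 22.5 CPM (log2 fold change 1.54). The receptor kinase AXL was low in both groups, at 2.13, 1.23 and 1.75 CPM and at 3.11, 4.59 and 4.41 CPM (log2 fold change 1.25). ERBB3 (0.60), FN1 (0.59) and CDH2 (0.52) were higher too, and SNAI2 (−0.59) and JUN were lower. In the 9-library fit the counts were 6 higher and 2 lower, and without shp16 replicate 1 they were 10 higher and 5 lower.

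Integrins and laminins gave 8 calls higher and 2 lower among 24, and 11 and 5 without shp16 replicate 1. ITGA3, a laminin receptor, had 91.8, 80.0 and 82.6 CPM in shp16 and 199, 191 and 199 CPM in shp16/shATR (log2 fold change 1.21). LAMB3, a chain of a laminin that ITGA3 binds, had 2.75, 2.99 and 3.12 CPM and then 10.7, 9.61 and 8.10 CPM (log2 fold change 1.67), whereas ITGA9 (−0.67) was lower. Collagens gave 3 higher and 1 lower among 19 (5 and 1 without that library), with COL11A1 at 142, 165 and 165 CPM against 267, 267 and 257 CPM (log2 fold change 0.74). The TGF-beta and BMP response gave 5 higher and 0 lower among 18 by edgeR (6 and 2 at an unadjusted p under 0.05, 5 and 0 by DESeq2). ID1, a BMP target, had 14.9, 20.1 and 19.5 CPM and then 37.6, 36.0 and 33.9 CPM (log2 fold change 0.98). For all 4 genes whose levels are given in this paragraph the groups stood apart. Targets of YAP, TAZ and TEAD gave 6 higher and 3 lower among 21, among them AXL, CTGF (now CCN2, 0.68) and CYR61 (now CCN1, 0.68) higher and RBMS3 (−0.94) lower. Without shp16 replicate 1 these targets gave 7 higher and 3 lower, and the TGF-beta and BMP list 6 higher and 0 lower. The Notch pathway gave 3 higher, among them the coactivator MAML3 (0.83), and 5 lower, among them HES4 (−0.84), of 25, and 5 and 7 without shp16 replicate 1. Receptor tyrosine kinases gave 2 higher (AXL and ERBB3) and 2 lower, TYRO3 (−0.51) and MET (−0.42), of 20. Over all genes 8.20% were called higher and 10.7% lower, and the receptor tyrosine kinases lay close to these shares. Without shp16 replicate 1 the shares over all genes were 13.1% and 14.7%.

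Calls in the RNA modification, small RNA and histone lists stood below, near and above the 18.9% over all genes. Of 20 tested genes of the m6A machinery, ALKBH5 and RBM15 (−0.35) were called lower and 0 higher by edgeR (3 and 2 at an unadjusted p under 0.05, 2 and 0 by DESeq2). DICER1 (0.35) and TARBP2 (0.22) were higher and DROSHA (−0.34) lower among 15 small RNA genes. When shp16 replicate 1 was left out, the m6A list gave 5 higher and 2 lower and the small RNA list 5 higher and 1 lower. The histone list then gave 5 higher and 3 lower. Histone genes gave 4 higher and 3 lower among 19, with HIST1H2AC at 8.05, 9.53 and 9.36 CPM against 17.7, 16.6 and 18.4 CPM (log2 fold change 0.96) and H2AFX (−0.42), the histone that ATR phosphorylates, at 68.0, 66.8 and 66.7 CPM against 51.0, 50.1 and 50.2 CPM.

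**Figure D5:**
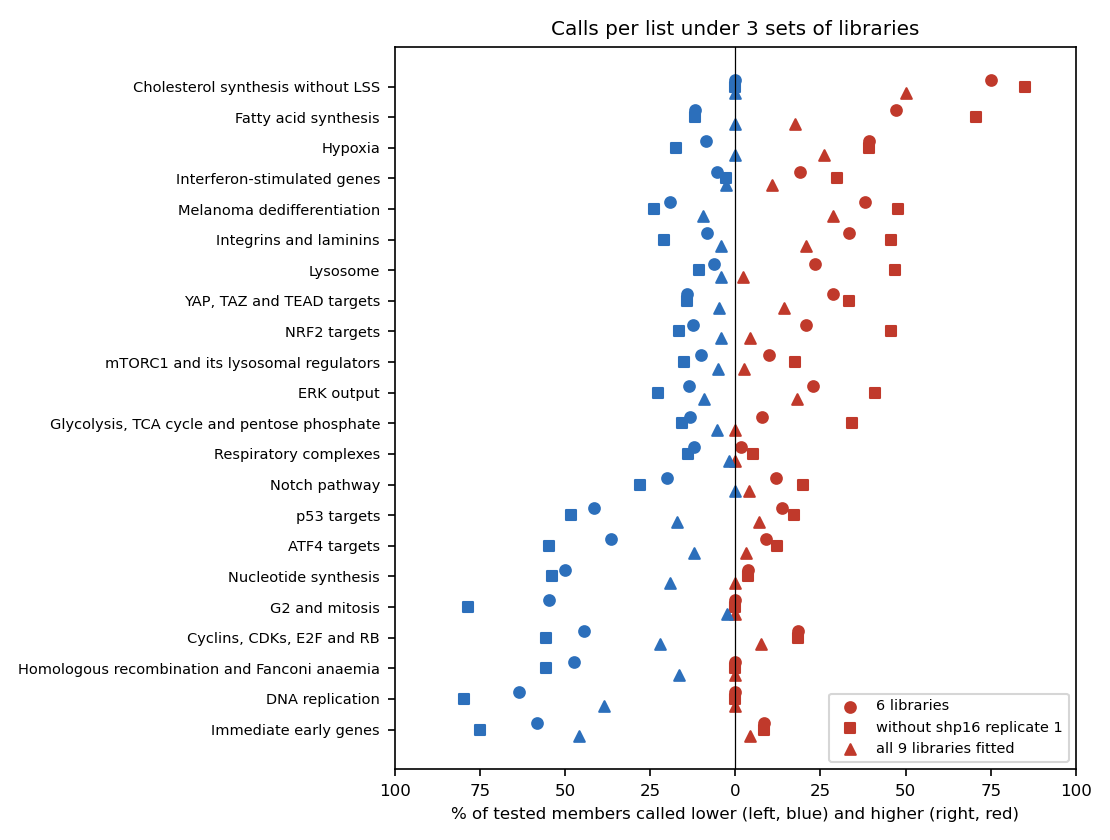
Shares of tested members (%) called lower (left, blue) and higher (right, red) are drawn for lists with at least 8 calls, with the 6 libraries as circles, without shp16 replicate 1 as squares and with all 9 libraries fitted as triangles. Calls are fewest in the 9-library fit, where mitotic genes keep 1 call and DNA replication keeps 17.

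Families of genes that share the start of their symbol were counted where at least 15 members were tested. CEP genes, most of which encode centrosomal proteins, had 10 of 31 called lower (32.3%) and 0 higher, with CEP112 (−1.06) and CEP170 (−0.69) the largest falls. KLF zinc finger factors had 5 of 15 lower (33.3%): KLF8 (−0.87), KLF11 (−0.66), KLF16 (−0.48), KLF10 (−0.46) and KLF6 (−0.40). NR nuclear receptors had 5 of 17 lower, NR4A3 (−0.69) and NR1D1 (−0.68) first, and NUDT hydrolases 6 of 21, NUDT19 (−0.74) first. Among rises, the BCL symbols led with 5 of 16 (31.2%), followed by the sorting nexins with 7 of 31 (22.6%), FKBP with 3 of 15 and ST with 4 of 21. SNX16 (0.44), SNX12 (0.42) and SNX14 (0.40) were the largest rises of the sorting nexins. These families were ranked by their calls, so their shares describe and do not test them.

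Calls were spread over the autosomes and chromosome X, to which the shares here refer. The share of genes called lower lay between 6.80% (chromosome 13) and 14.9% (chromosome 12), and that called higher between 5.61% (chromosome 19) and 10.8% (chromosome X). By gene length, the share called lower was 4.69% in the shortest quintile of genes and 14.96% in the longest, and that called higher was 5.12% and 9.47%. By mean level, the share called lower was 1.18% in the lowest quintile (up to 1.99 CPM) and 15.3% in the highest, and longer and more abundant genes hold more reads.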

How the data were processed

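RNA of SKMEL28 cells was extracted with Trizol, treated with DNase, and made into libraries that Novogene sequenced. The submitters' processing notes name STAR 2.6.1, DESeq2 2 and GRCh38, but the gene coordinates in the deposited table run to position 249231242 on chromosome 1, which is the GRCh37 build. The counting program, its use of strand and the annotation release are not given in the sources used here. For 48162 genes the deposited table holds whole, unnormalized counts and FPKM; recomputing FPKM from counts, lengths and column sums gave the authors' values (largest relative difference 4.22e-07). The 3 shp16/shATR columns of counts share 1 name, so these libraries were called a, b and c.

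From the counts, genes were filtered with filterByExpr, normalized by TMM and tested with edgeR 4.0.16 (quasi-likelihood, R 4.3.3) over the 6 libraries with group as the only term, at a Benjamini-Hochberg adjusted p of 0.05 over all genes. Only these 2 groups were fitted because shCont replicate 1 stood apart. The standard error is the log2 fold change divided by the square root of F. Printed CPM use TMM factors over all 9 libraries. Motif shares of promoters are given only for gene sets in which at least 80% of the members had a promoter. Replicates differed by more than sampling noise and were counted separately. The procedure was tested on simulated data.

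Lists, named genes and tests were chosen with earlier results of these data known. Named were the 15 largest rises and falls (mean of at least 5 CPM, no overlap), genes chosen for their role, up to 4 called members of a list in its main direction and 2 in the other, and 4 families per direction. Other members of lists and families were named after their values were seen. LSS and the 3′ UTR motif were left aside, and some genes that the lists count are not reported here by name. Gene lists are described by counts and medians and were given no test. The alternatives were DESeq2 1.42.0, 2 other normalizations, 2 other filters, removal of a gene length trend, limma 3.58.1 on log2(FPKM + 1) or log2(FPKM + 0.1), a replicate block, 2 fits with shCont libraries, 3 stricter thresholds and each of the 6 libraries left out. For limma an FPKM fold change understates low genes.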

Additional observations from a re-analysis of the deposited data

How the results depend on the processing

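The fall of ATR was called under every one of the 17 alternative fits, with log2 fold changes between −1.15 and −0.973. With the spread of all 9 libraries 981 genes were called (430 higher, 551 lower). An adjusted p of 0.01 left 1396 (564 and 832), a log2 fold change of at least 0.5 left 1173 (537 and 636), and one of at least 1 left 225 (161 and 64). Leaving out 1 library at a time gave 1512 to 4371 calls, 614 to 2059 higher and 898 to 2312 lower, with the most without shp16 replicate 1 and the fewest without shp16/shATR library a. Limma on log2(FPKM + 1) with the replicate block gave 661 calls (254 and 407), against 2417 without the block. Deviations from the group means of libraries with the same number correlated at −0.146, 0.356 and −0.393 over 12231 genes. The value was 0.508 for shp16 number 1 with shp16/shATR number 3. Deviations from a mean of 3 libraries depend on each other, and shp16 replicate 1 stood apart. The correlations therefore cannot decide whether the replicate numbers pair the libraries, and the labels give no shared batch. Of 214 named genes called with 6 libraries, 87 were called under every alternative. Limma with the replicate block lost 123 of the 214, limma without it 36 or, on log2(FPKM + 0.1), 51, and the 9-library fit lost 87. Leaving out library b lost 65, library a 63, library c 37, shp16 replicate 2 lost 41, replicate 3 lost 33 and replicate 1 lost 2. Without shp16 replicate 1, the direction turned for B2M and TYR, neither of which was called with 6 libraries: leaving out 1 library gave log2 fold changes of −0.205 to 0.252 for B2M, which edgeR then called lower without shp16 replicate 1 (adjusted p = 0.0446), and of −0.00238 to 0.168 for TYR. Of 798 list medians under the alternatives, 723 moved by no more than the SD between replicates, taken from the group with the larger SD. Because shp16 replicate 1 widens that SD, the count cannot show how far the medians depend on that library. Without it, the median of the mitochondrial genome went from −0.12 to 0.27 on the log2 scale. The causes of these changes were not tested. Depth limits the low genes: of the 3042 genes with a mean of up to 1.99 CPM, 87 were called higher and 36 lower. Replicates that are taken to be technical cannot show how a new infection would vary.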

Other observations

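Calls were also counted by gene type, as a description with no test between types. By the GENCODE gene type, matched on Ensembl identifiers for all but 429 of the tested genes, 12401 protein-coding genes gave 1126 calls higher (9.08%) and 1578 lower (12.7%). The 776 antisense genes gave 38 higher and 6 lower, with a median log2 fold change of 0.145, and the 562 lincRNA genes gave 34 higher and 12 lower, with a median of 0.16. H19 (log2 fold change 2.32), a noncoding RNA, led the 15 largest rises with a mean of at least 5 CPM. The use of strand in counting is not given, so reads of an antisense gene and its partner cannot be told apart.

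Several genes with a mean under 5 CPM moved further than the 15 largest rises and falls above that level and were singled out after their values were seen. MLC1, a membrane protein of astrocytes, had a mean of 0.345 CPM in shp16 and 3.07 CPM in shp16/shATR (log2 fold change 3.12). DCSTAMP, a protein of osteoclast fusion, had 0.115 and 0.817 CPM (log2 fold change 2.76). On the falling side, SLC5A4, a member of the glucose cotransporter family, had 1.75 to 3.27 CPM in shp16 and 0.461 to 0.564 CPM in shp16/shATR (log2 fold change −2.31), and SLC8A1, a sodium-calcium exchanger, had 0.982 and 0.254 CPM (log2 fold change −1.95).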
